A study of Mus musculus with 12 samples.

Results

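The genes described here are 42 mouse genes of fatty acid metabolism, chosen by symbol from the 32051 genes measured: the sterol regulatory element–binding protein 1 (SREBP1) gene *Srebf1* and other regulators, and the enzymes and carriers that make, desaturate, elongate, activate, store, and oxidize fatty acids. All 42 were found, and 41 averaged 0.1 FPKM or more across the 12 libraries and were tested. FPKM, fragments per kilobase of exon scaled to the reads of a library, is a level per gene length. The exception was *Thrsp*, whose product regulates lipogenesis, at 0 to 4 reads in every library.

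SREBP1 is a membrane-bound transcription factor that is held in the endoplasmic reticulum by SCAP and INSIG proteins and is cut free when cells need lipid. It then turns on genes for the synthesis of fatty acids, from ATP citrate lyase and acetyl-CoA carboxylase to fatty acid synthase and the desaturases. Activated T cells build membrane from newly made fatty acids, whereas long-lived T cells rely more on fatty acid oxidation in mitochondria.

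The cells were Th9 cells, an IL-9–producing CD4+ T cell subset, polarized in culture from naive splenic CD4+ T cells of C57BL/6J mice. The cultures held TGF-β at 1 ng/mL and IL-4 at 10 ng/mL. Per the study's methods, Th9 cultures were also stimulated with anti-CD3 and anti-CD28 and held antibodies that neutralize IL-12 and IFN-γ. The 4 groups of 3 replicates received DMSO (the vehicle), 10 μM EpA, 5 μM fatostatin, or both compounds, and RNA was taken on day 4. EpA is endomelipeptide A, a cyclic lipopeptide from fungi that live in *Ganoderma lucidum*, and fatostatin blocks the processing of SREBP. Nothing in the labels says whether replicates came from separate cultures or mice, so that p-values measure only the spread between these libraries, which may be technical. The design allowed the effect of each compound to be read without and with the other.

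The scaling of the FPKM implied 36607303 to 44375791 reads per library, and the reads recovered on genes from FPKM and exon length summed to 36019739 to 43656682. The first replicates of fatostatin and of both compounds stood apart, with FPKM sums of 280099 and 279720 against 284239 to 286956 in the other 10. Without them, an alternative chosen after seeing the data, the genes higher and lower numbered 9 and 8 for EpA against DMSO. The numbers were 3 and 5 for both compounds against EpA, and 11 and 6 against fatostatin. These counts were the same as with all libraries, and the counts that differed are given below. The genes behind equal counts could differ. For both compounds against EpA the calls of *Srebf1* and *Elovl5* ended, and *Scd2* was called lower (log2 -0.077). The T cell markers *Cd3e*, *Cd3d*, *Cd3g*, and *Cd4* summed to 384.9 to 392 FPKM with DMSO, 339.6 to 348.4 with EpA, 392.6 to 405.4 with fatostatin, and 343.3 to 346.8 with both. Within that list *Cd3e*, *Cd3d*, and *Cd3g* fell with EpA (log2 -0.33, -0.24, and -0.27), whereas *Cd4* rose (0.15, limma adjusted p = 7.70e-05). The Th9 list (*Il9*, *Irf4*, *Batf*) summed to 283 to 290.0 FPKM with DMSO, 858 to 891 with EpA, 293 to 305 with fatostatin, and 1053 to 1108 with both. The rise was carried by *Il9*, the defining cytokine gene (54.6 ± 3.38 FPKM with DMSO and 639.96 ± 17.5 with EpA), and *Batf* also rose with EpA (0.34), while *Irf4* fell (-0.12, limma adjusted p = 0.00185). Of the 4 macrophage or monocyte markers, 3 had means under 0.1 FPKM, and their sum was 0.0387 to 0.116 with DMSO, 0.183 to 0.342 with EpA, 0.167 to 0.320 with fatostatin, and 0.374 to 0.565 with both. The NK cell markers summed to 0.196 to 0.274 FPKM with DMSO, 0.0969 to 0.156 with EpA, 0.206 to 0.307 with fatostatin, and 0.120 to 0.136 with both, and the B cell markers to 0.915 to 1.07 with DMSO, 0.547 to 0.824 with EpA, and 1.104 to 1.23 with both. The dendritic cell markers summed to 0.571 to 0.656 FPKM with DMSO, 0.504 to 0.545 with fatostatin, and 0.452 to 0.538 with both. The CD8 T cell markers summed to 8.71 to 9.80 FPKM with DMSO, 7.85 to 8.57 with EpA, and 6.98 to 8.60 with both. Of these, *Cd8a* fell from 1.81 ± 0.182 FPKM with DMSO to 0.802 ± 0.0328 with EpA (log2 -1.08, limma adjusted p = 2.85e-05). With both compounds it was at 0.491 ± 0.0767 (-1.70). Most of the sum was *Cd8b1*, at 7.60 ± 0.426 FPKM with DMSO and 7.47 ± 0.404 with EpA (-0.025, limma adjusted p = 0.877). The T cell, Th9, macrophage, NK cell, B cell, dendritic cell, and CD8 T cell sums thus moved with a compound, and their part in the results below was not tested. The adipocyte markers summed to at most 0.0513 FPKM, with *Cidec* and *Lep* at 0. These were bulk libraries, in which fewer cells of a type and less RNA per cell cannot be told apart.

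The promoters of 4 genes are shown to place the regulator and its textbook target motifs in sequence: that of *Srebf1* itself, of *Fasn* and *Elovl5*, whose levels moved in opposite directions with EpA, and of *Acsl1*, which held the single match to a sterol regulatory element. They are RefSeq windows of 300 bases on GRCm38.p6, most of each lying before a transcription start. *Srebf1* has 3 windows in the table, of which the most upstream is shown, at chr11:60222532-60222831, minus strand; *Fasn* at chr11:120824498-120824797, minus strand; *Elovl5* at chr9:77917115-77917414, plus strand; and the *Acsl1* window is the downstream start of that gene, at chr8:46490716-46491015, plus strand. Capitals mark the motifs searched on both strands: the sterol regulatory element TCACNCCAC, the E-box CACGTG, and CCAAT, which is read as ATTGG on the other strand.
Srebf1: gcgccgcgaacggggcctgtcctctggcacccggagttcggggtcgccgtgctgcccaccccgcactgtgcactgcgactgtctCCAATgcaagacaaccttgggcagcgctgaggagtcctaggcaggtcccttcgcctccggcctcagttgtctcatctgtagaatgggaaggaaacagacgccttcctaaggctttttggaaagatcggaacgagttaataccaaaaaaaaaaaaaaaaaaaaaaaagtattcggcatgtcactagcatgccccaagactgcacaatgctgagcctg
Fasn: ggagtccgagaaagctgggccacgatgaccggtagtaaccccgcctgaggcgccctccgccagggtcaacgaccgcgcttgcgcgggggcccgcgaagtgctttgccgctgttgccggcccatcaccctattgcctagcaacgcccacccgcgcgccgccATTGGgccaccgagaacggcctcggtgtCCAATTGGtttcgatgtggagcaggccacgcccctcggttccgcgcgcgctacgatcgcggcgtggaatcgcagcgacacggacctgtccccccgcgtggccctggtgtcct
Elovl5: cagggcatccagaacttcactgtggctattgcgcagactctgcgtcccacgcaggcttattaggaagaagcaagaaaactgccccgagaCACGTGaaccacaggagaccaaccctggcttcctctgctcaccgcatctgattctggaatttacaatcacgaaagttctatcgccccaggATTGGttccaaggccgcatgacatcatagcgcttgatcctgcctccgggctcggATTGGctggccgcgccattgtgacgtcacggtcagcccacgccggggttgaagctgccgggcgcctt
Acsl1: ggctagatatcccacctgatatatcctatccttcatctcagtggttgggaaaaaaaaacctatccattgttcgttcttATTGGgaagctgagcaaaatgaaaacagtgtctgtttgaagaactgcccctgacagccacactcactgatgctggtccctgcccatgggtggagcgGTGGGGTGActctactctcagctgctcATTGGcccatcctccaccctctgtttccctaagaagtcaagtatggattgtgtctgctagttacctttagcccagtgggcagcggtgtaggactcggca

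The promoter table held 35 of the 42 genes, in 42 windows, and lacked *Scd1*, *Scd2*, *Fads1*, *Dgat1*, *Dgat2*, *Usf2*, and *Fabp5*. An exact match to the sterol regulatory element TCACNCCAC occurred in 1 of the 42 windows (2.38%), 76 bases before the downstream start of *Acsl1*. It occurred in 1.24% of all 32851 windows. The E-box occurred in 2 windows (4.76%, against 7.15% of all), 161 bases before the start of *Elovl5* and 4 before that of *Plin2*. CCAAT occurred in 18 windows (42.9%, against 37.4% of all). In the *Fasn* window it stood 90, 62, and 59 bases before the start, the last pair overlapping on opposite strands as CCAATTGG. These matches are descriptions of the letters in a short window and do not show binding. Variants of the letters and bases outside the windows were not searched, so a window without a match does not show that a gene lacks such a site.

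In the control libraries the stearoyl-CoA desaturases *Scd1* and *Scd2* had the highest levels per length of the set. *Scd2* stood at 534 ± 8.22 FPKM (mean ± SD, n = 3) and *Scd1* at 243 ± 2.43. The next were *Acly*, which makes cytosolic acetyl-CoA from citrate, at 70.5 ± 0.986, the fatty acid carrier *Fabp5* at 62.7 ± 1.53, the acyl-CoA synthetase *Acsl5* at 53.8 ± 0.684, and the elongase *Elovl5* at 52.01 ± 0.731. *Srebf1* was at 37.3 ± 0.835 and the other regulators at 6.59 (*Mlxip*) to 14.0 (*Nr1h2*), apart from *Nr1h3*, the LXRα gene, at 0.176 ± 0.0270. *Acadl* led the oxidation genes at 43.4 ± 1.73. At the low end, *Fads3*, *Elovl7*, *Nr1h3*, the scavenger receptor *Cd36*, and the mitochondrial acetyl-CoA carboxylase *Acacb* were all under 1 FPKM. Their values in the DMSO libraries rested on 48 to 74, 24 to 44, 17 to 19, 8 to 22, and 26 to 48 reads.

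**Figure D1:**
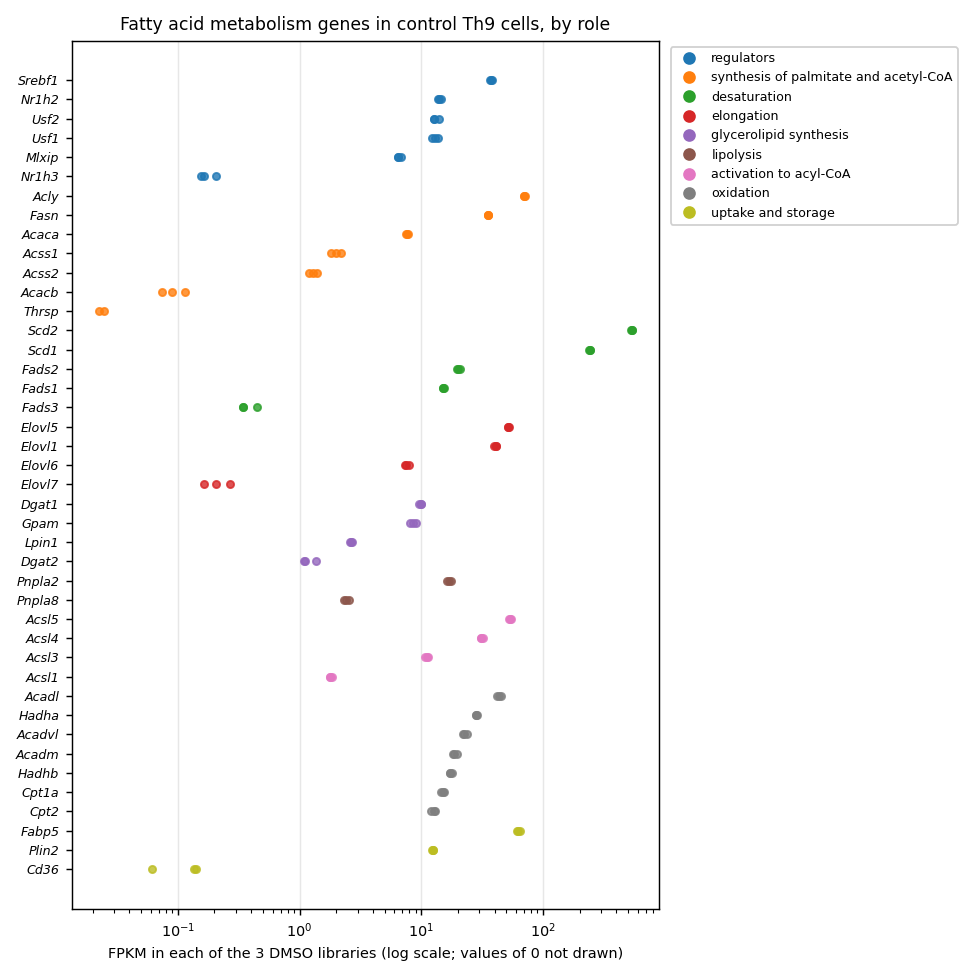
Levels of the 42 genes in the 3 DMSO libraries. Each point is 1 library, the x axis is FPKM on a log scale (values of 0 are not drawn), and genes are grouped by role and ordered by mean. The stearoyl-CoA desaturases lie far to the right at 243 and 534 FPKM, and *Thrsp*, *Acacb*, *Cd36*, *Nr1h3*, *Elovl7*, and *Fads3* lie below 1.

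EpA against DMSO asked what the peptide did to these genes on its own. On the scale of FPKM + 0.1 used in all percentages here, with EpA *Srebf1* fell by 17.2%, *Elovl5* fell by 15.4%, and *Acsl4* rose by 27.7%, *Acadm* by 18.3%, and *Fasn* by 9.63%. In all, 9 of the 41 tested genes rose and 8 fell at a limma adjusted p below 0.05, against 14.3% higher and 13.1% lower among all 13733 genes tested (27.4% in either direction). None passed the fold change of 1.5 that the study also required, which 3.38% of all genes did. The median difference over the 41 genes was 0.025 on the log2 scale, against 0.0023 over all genes. The 3 libraries of each group did not overlap for 15 genes that were higher and 9 that were lower, as for 42.4% of all genes. Higher were *Acly*, *Fasn*, *Fads3*, *Elovl1*, *Elovl6*, *Dgat1*, *Acsl4*, *Acadm*, and *Fabp5*, and lower were *Srebf1*, *Scd1*, *Fads1*, *Elovl5*, *Gpam*, *Acsl5*, *Hadha*, and *Plin2*. Without EpA replicate 1 the count of genes that rose was 5 instead of 9. Calls that ended when a single EpA or DMSO library was left out were those of *Fads3* (log2 0.43 to 0.49 without it), *Elovl6* (0.1 to 0.12), *Elovl1* (0.05 to 0.07), *Fabp5* (0.08 to 0.09), and *Gpam* (-0.17 to -0.12). Each of the 6 libraries ended at least 1 of these 5 calls, and EpA replicate 1 ended all 5.

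Both compounds against fatostatin asked the same of EpA with fatostatin present, in libraries not shared with the first comparison. *Srebf1* fell by 15.1% and *Elovl5* fell by 14.4%, and *Dgat2*, *Fads3*, *Acsl4*, *Dgat1*, and *Acadm* rose by 78.9%, 52.2%, 32.8%, 30.2%, and 24.8%. Of the 41 genes, 11 rose and 6 fell, against 16.2% and 13.3% of all genes tested (29.5% together). *Dgat2* and *Fads3* also passed the fold change of 1.5, as did 3.75% of all genes. *Fads3* was below it without fatostatin replicate 3 (log2 0.48) or replicate 3 of both compounds, and with a pseudocount of 1 both were below it (0.22 for *Fads3* and 0.51 for *Dgat2*). The median difference was 0.030 on the log2 scale and 0.012 over all genes. The groups did not overlap for 15 higher and 8 lower genes, and for 41.4% of all genes. Under median-of-ratios scaling the counts of 11 and 6 were the same, while the higher share of calls over all genes went from 54.8% to 48.7%. In both readings of EpA, 9 genes rose, 5 fell, and 0 were called in opposite directions, which is 82.4% of the 17 genes called in each. Over all genes, the calls made the same way in both were 73.7% of those without fatostatin and 68.4% of those with it. Of the 41 genes, 35 had the same sign in both, and 76.7% of all genes did. Among the calls, *Fads1* was lost without each of 10 of the 12 libraries (log2 -0.09 to -0.06), *Hadha* without fatostatin replicate 2 or replicate 3 of both compounds (-0.07), and *Fads2* without replicate 3 of both compounds (0.16).

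Fatostatin against DMSO gave the effect of the inhibitor on its own. SREBP processing itself was not measured in these libraries. The change was mostly downward and was led by *Scd1*, which fell by 29.3%. The change was -17.2% for *Gpam*, -11.96% for *Dgat1*, -11.2% for *Elovl1*, -9.86% for *Fads1*, and -8.27% for *Srebf1* itself. *Lpin1* rose by 37.5% and *Acsl4* by 12.6%. In all, 2 genes rose and 9 fell, against 7.69% higher and 6.31% lower among all genes (14.0% together), and none passed the fold change of 1.5, which 1.86% of all genes did. The groups did not overlap for 3 higher and 10 lower genes, together a share near the 31.3% of all genes. The remaining calls were *Elovl5*, *Fads2*, and *Acly*, all lower. The median difference was -0.024 on the log2 scale, against 0.0053 over all genes. The count of genes that fell was 8 without the first replicates of fatostatin and of both compounds, and 5 without DMSO replicate 1. The calls of *Fads2* (log2 -0.19 to -0.12), *Dgat1* (-0.17), *Acly* (-0.1 to -0.07), and *Elovl5* (-0.07 to -0.06) each ended when single libraries were left out. Each of the 6 libraries compared ended at least 1 of these calls, and DMSO replicate 1 ended all 4.

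Both compounds against EpA gave the effect of fatostatin on top of EpA, again in libraries not shared with its counterpart. *Scd1* fell by 24.3%, and *Lpin1*, *Acsl4*, and *Plin2* rose by 33.5%, 17.1%, and 12.9%. Of the 41 genes, 3 rose and 5 fell (*Scd1*, *Elovl1*, *Fads1*, *Srebf1*, and *Elovl5*), against 9.22% and 6.79% of all genes (16.0% together), and none passed the fold change of 1.5, which 1.99% of all genes did. The genes called were 19.5% of the 41, near the 16.0% of all genes. The groups did not overlap for 6 higher and 6 lower genes, together a share below the 33.3% of all genes. In both readings of fatostatin, *Lpin1* and *Acsl4* rose and *Scd1*, *Elovl1*, *Fads1*, *Srebf1*, and *Elovl5* fell, which is 63.6% of the 11 genes called without EpA and 87.5% of the 8 called with it. Over all genes these shares were 66.5% and 58.1%. The same sign was seen in 27 of the 41 genes and in 71.0% of all genes. The count of genes that fell was 3 without EpA replicate 1, where *Srebf1* (log2 -0.09 to -0.08 over the libraries whose removal ended its call) and *Elovl5* (-0.07 to -0.05) were lost, and 3 with no intensity trend in the fit, and it was 7 under median-of-ratios scaling. That scaling also moved the higher share of calls over all genes from 57.6% to 46.5%. Each of the 6 libraries compared ended at least 1 of these 2 calls.

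Both compounds against DMSO gave the largest number of calls. *Elovl7*, *Lpin1*, *Dgat2*, and *Acsl4* rose by 97.2%, 50.1%, 50.1%, and 49.5%, and the changes of *Scd1*, *Srebf1*, *Elovl5*, *Gpam*, and *Fads1* were -29.7%, -22.1%, -18.9%, -16.4%, and -14.8%. In all, 13 genes rose and 9 fell, against 19.7% and 15.8% of all genes (35.5% together). *Elovl7*, *Lpin1*, and *Dgat2* passed the fold change of 1.5 as well, as did 5.64% of all genes, *Lpin1* and *Dgat2* at a fold of 1.501 each. *Lpin1* was below it without DMSO replicate 1 or replicate 1 or 3 of both compounds (lowest log2 0.54), and *Dgat2* without DMSO replicate 1 or 3 or replicate 2 of both compounds (lowest 0.50). Both were also below it under median-of-ratios scaling, and with a pseudocount of 1 all 3 were (0.32 for *Elovl7*, 0.46 for *Lpin1*, and 0.37 for *Dgat2*). The groups did not overlap for 15 higher and 11 lower genes, and for 46.4% of all genes. The median difference was 0.029 on the log2 scale and 0.017 over all genes. Median-of-ratios scaling gave 11 higher and 11 lower, and turned the order of the shares over all genes (55.5% of calls higher, and 48.9% under that scaling), and the counts were 10 and 10 without the first replicates of fatostatin and of both compounds. Calls that ended when 1 library was left out were *Acaca* (log2 0.11 to 0.14), *Acly* (0.06 to 0.08), *Fabp5* (0.06 to 0.08), *Fads3* (0.42 to 0.47), and *Elovl1* (-0.07 to -0.06). Each of the 6 libraries compared ended at least 1 of them, and DMSO replicate 2 ended all 5.

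**Figure D2:**
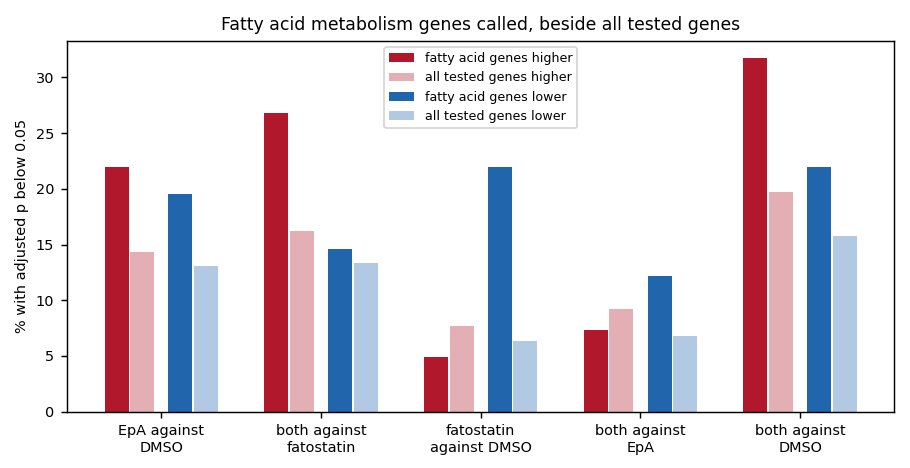
Share of the 41 tested fatty acid metabolism genes (dark bars) and of all 13733 tested genes (light bars) with an adjusted p below 0.05, higher (red) or lower (blue), in each comparison. The tallest dark bar is the 13 genes that rose with both compounds against DMSO, and with fatostatin 9 of the 41 genes fell while 6.31% of all genes did.

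**Figure D3:**
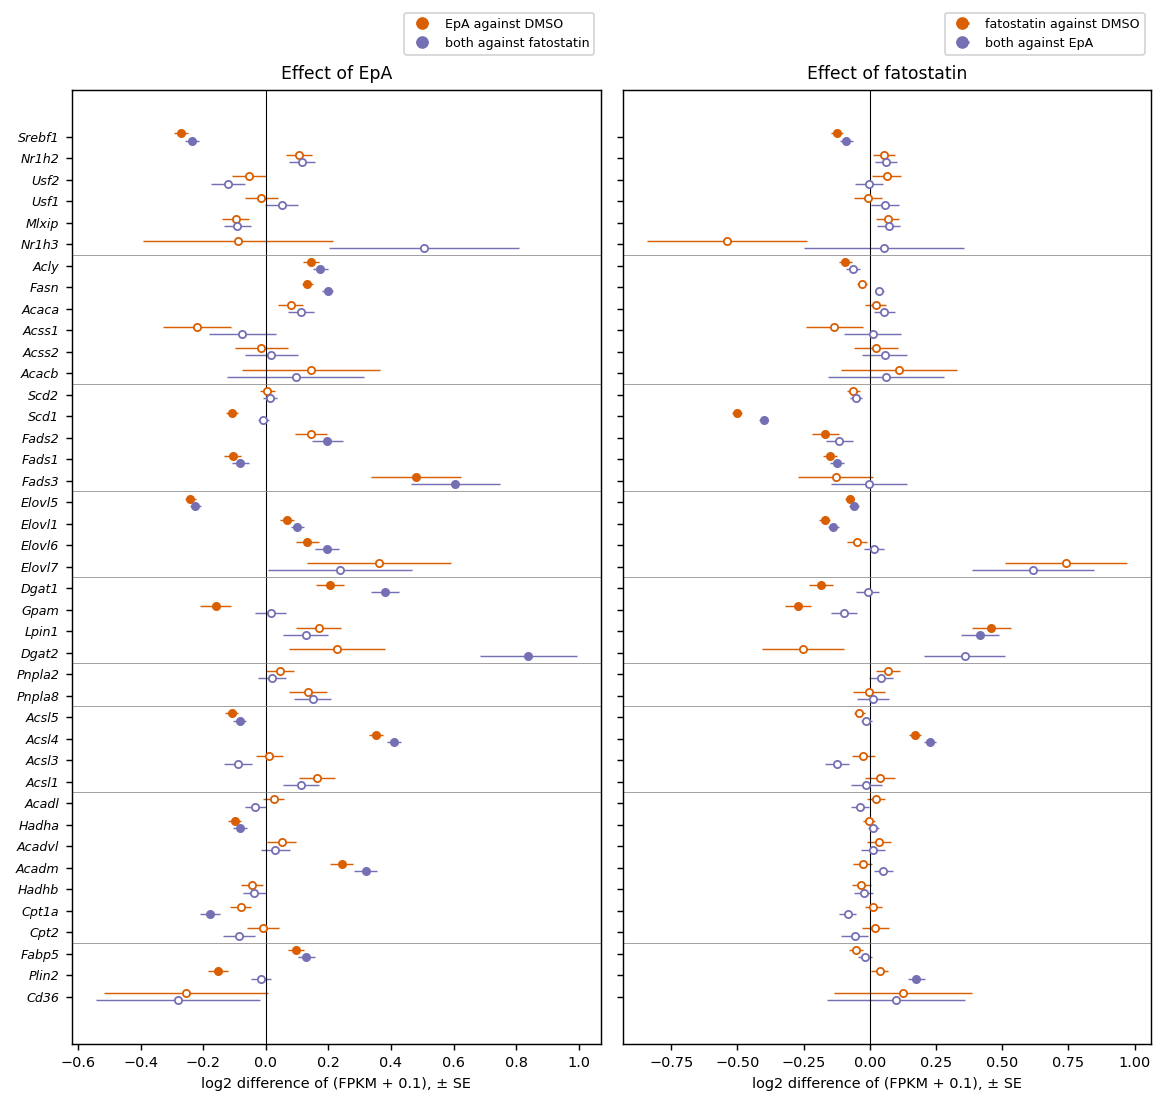
Log2 difference of (FPKM + 0.1), with its SE, for each tested gene by role: EpA without (orange) and with (purple) fatostatin on the left, fatostatin without and with EpA on the right. Filled points have an adjusted p below 0.05. *Srebf1*, *Elovl5*, and *Fads1* lie left of 0 in both panels and *Acsl4* lies right of 0 in both, whereas *Fasn*, *Acly*, and *Dgat1* rise with EpA and not with fatostatin.

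Among the 6 regulators, *Srebf1* was the only gene called with either compound alone. It lies at chr11:60199089-60222581, minus strand (GRCm38). Its level was 37.7, 36.4, and 37.98 FPKM with DMSO, 31.4, 30.9, and 30.4 with EpA, 33.9, 34.99, and 33.8 with fatostatin, and 29.1, 28.7, and 29.4 with both compounds. The libraries of the 4 groups did not overlap, in the order DMSO, fatostatin, EpA, and both compounds from high to low. The log2 step from EpA to both compounds was -0.089, and its call was lost under 6 of the 23 alternatives. The log2 difference was -0.27 ± 0.0231 (SE, limma adjusted p = 7.63e-06) for EpA, -0.12 ± 0.0231 (adjusted p = 0.00391) for fatostatin, and -0.36 ± 0.0231 (adjusted p = 4.19e-07) for both compounds against DMSO. *Nr1h2*, the LXRβ gene, rose with both compounds against DMSO (0.17 ± 0.0417, adjusted p = 0.00886). *Usf1* and *Usf2*, E-box–binding factors, *Mlxip*, a glucose-sensing partner of MLX, and *Nr1h3* passed in no comparison. In *Usf1*, 17.2% of 50-base stretches also occurred in other genes.

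Of the 6 tested genes of palmitate and acetyl-CoA synthesis, 2 rose and 0 fell with EpA, and 0 rose and 1 fell with fatostatin, shares of 33.3% and 16.7% that lie near the 27.4% and 14.0% of all genes. *Fasn*, the fatty acid synthase gene (chr11:120805846-120824547, minus strand), was at 35.4, 35.4, and 35.2 FPKM with DMSO, 38.7, 38.7, and 38.8 with EpA, 34.8, 35.1, and 33.9 with fatostatin, and 39.5, 39.8, and 39.7 with both compounds. All 6 libraries with EpA lay above all 6 without it. Its log2 difference was 0.13 ± 0.0175 (limma adjusted p = 2.00e-04) for EpA, 0.20 ± 0.0175 (adjusted p = 8.45e-06) for both compounds against fatostatin, and -0.030 ± 0.0175 (adjusted p = 0.311) for fatostatin. *Acly* was at 70.5 ± 0.986 FPKM with DMSO, 77.98 ± 1.09 with EpA, 66.1 ± 1.66 with fatostatin, and 74.6 ± 2.14 with both. It rose with EpA (0.15, adjusted p = 0.00127) and fell with fatostatin (-0.093, adjusted p = 0.0286). *Acaca*, the cytosolic acetyl-CoA carboxylase gene, rose with both compounds against DMSO (0.13, adjusted p = 0.0226), and 30.4% of its 50-base stretches recur in other genes, mainly *Gm5182*. The acetyl-CoA synthetase genes *Acss1* and *Acss2* and *Acacb* passed in no comparison. The summed level of the 7 genes was 117 ± 1.23 FPKM with DMSO, 128 ± 1.29 with EpA, 112 ± 2.79 with fatostatin, and 126 ± 2.32 with both, most of it from *Acly* and *Fasn*.

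The largest difference with fatostatin among the genes called was in desaturation. *Scd1* (chr19:44394455-44407879, minus strand), which introduces the double bond that turns stearate into oleate, was at 243, 246, and 241 FPKM with DMSO, 229, 224, and 224 with EpA, 176, 170.1, and 169 with fatostatin, and 169.6, 172, and 171 with both compounds. The 6 libraries with fatostatin lay between 169 and 176 FPKM whether or not EpA was present, and those without it between 224 and 246. The log2 difference was -0.50 ± 0.0185 for fatostatin (limma adjusted p = 1.90e-08), -0.40 ± 0.0185 for both compounds against EpA (adjusted p = 1.07e-07), and -0.11 ± 0.0185 for EpA (adjusted p = 0.00129). Both compounds against fatostatin gave -0.0076 ± 0.0185 (adjusted p = 0.808).

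*Scd2* (chr19:44293674-44306864, plus strand), a paralog on the same chromosome with the higher level per length, was at 525, 539, and 539 FPKM with DMSO, 538, 539, and 532 with EpA, 526, 506, and 504 with fatostatin, and 534, 509, and 507 with both compounds. The groups overlapped in every comparison made. The EpA libraries lay above those with fatostatin alone, a pair that was not compared. No difference passed: 0.0047 ± 0.0236 for EpA (limma adjusted p = 0.914) and -0.062 ± 0.0236 for fatostatin (adjusted p = 0.114). Some alternatives called it lower. Without the first replicates of fatostatin and of both compounds, the *Scd2* difference for fatostatin was -0.081 (adjusted p = 0.0116), and with voom of limma on the recovered reads it was -0.062 (adjusted p = 0.0151). For both compounds against DMSO it also passed under 4 alternatives (-0.072 to -0.049), and against EpA under 3 (-0.077 to -0.053). *Scd1* made up 31.3 ± 0.399% of the summed FPKM of the pair with DMSO, 29.6 ± 0.284% with EpA, 25.1 ± 0.0374% with fatostatin, and 24.9 ± 0.654% with both (SD, n = 3). Of the 50-base stretches of *Scd1*, 4.56% recur in *Scd2*, *Scd3*, or *Scd4*, and 3.97% of those of *Scd2* in the other copies, so that some reads could have been split between them.

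**Figure D4:**
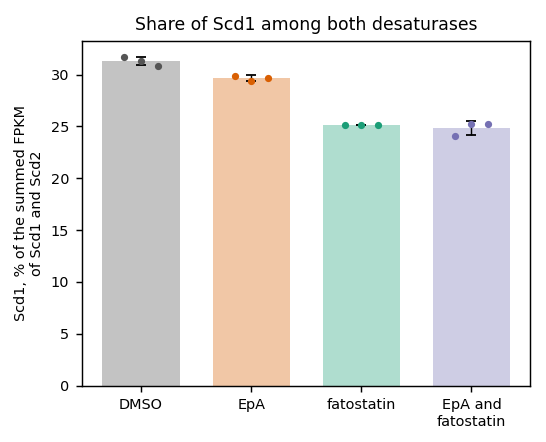
*Scd1* as a percentage of the summed FPKM of *Scd1* and *Scd2* in each library (points), with the mean (bar) and SD (error bar) of 3 libraries. The share was 30.9% to 31.7% in the DMSO libraries and 24.1% to 25.2% in the 6 libraries with fatostatin.

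With EpA the front-end desaturases, which make long-chain polyunsaturated fatty acids, did not move together, whereas *Fads1* and *Fads2* both fell with fatostatin. *Fads1* (chr19:10182888-10196877, plus strand), the delta-5 desaturase gene, was at 15.2, 15.1, and 15.3 FPKM with DMSO, 14.2, 14.2, and 13.96 with EpA, 13.3, 13.7, and 14.2 with fatostatin, and 13.03, 12.9, and 12.9 with both compounds. The libraries with both compounds lay below all others, and those with EpA and those with fatostatin overlapped. It fell with EpA (-0.11 ± 0.0267, limma adjusted p = 0.0120), with fatostatin (-0.15 ± 0.0267, adjusted p = 0.00303), and with both compounds against DMSO (-0.23 ± 0.0267, adjusted p = 4.47e-05). *Fads2*, the delta-6 desaturase gene, was at 20.3 ± 0.607 FPKM with DMSO, 22.4 ± 1.02 with EpA, 18.1 ± 1.17 with fatostatin, and 20.7 ± 0.897 with both. It fell with fatostatin (-0.17, adjusted p = 0.0475) and rose with both compounds against fatostatin (0.20, adjusted p = 0.0121), and EpA alone gave 0.14 (adjusted p = 0.0538). *Fads3*, at 41 to 92 reads over the 12 libraries, rose with EpA (0.48 ± 0.143, adjusted p = 0.0275), a fold on the log2(FPKM + 0.1) scale, which understates changes at such low levels.

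Each of the 4 elongases had its own pattern. *Elovl5* (chr9:77917364-77984519, plus strand), which lengthens polyunsaturated fatty acids, was at 52.9, 51.5, and 51.6 FPKM with DMSO, 43.9, 43.4, and 44.7 with EpA, 49.5, 48.9, and 49.5 with fatostatin, and 42.5, 41.96, and 42.1 with both compounds. As for *Srebf1*, the 4 groups did not overlap and stood in the order DMSO, fatostatin, EpA, and both. The log2 step from EpA to both was -0.060, and its call was lost under 13 of the 23 alternatives. Its log2 difference was -0.24 ± 0.0179 for EpA (limma adjusted p = 2.90e-06), -0.076 ± 0.0179 for fatostatin (adjusted p = 0.0147), and -0.30 ± 0.0179 for both (adjusted p = 2.32e-07). *Elovl1*, an elongase of very-long-chain saturated fatty acids, rose with EpA (0.068, adjusted p = 0.0341) and fell with fatostatin (-0.17, adjusted p = 2.50e-04). *Elovl6*, which extends palmitate to stearate, rose with EpA (0.13, adjusted p = 0.0207), and fatostatin gave -0.047 (adjusted p = 0.473). *Elovl7* was at 0.163, 0.268, and 0.206 FPKM with DMSO, 0.257, 0.369, and 0.277 with EpA, 0.410, 0.288, and 0.603 with fatostatin, and 0.422, 0.521, and 0.602 with both compounds. Its libraries with both compounds did not overlap those with DMSO (0.98 ± 0.230, adjusted p = 0.00626), on 24 to 99 reads a library.

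In glycerolipid synthesis all 4 genes were called with both compounds against DMSO, 3 higher and 1 lower, where 35.5% of all genes were called. *Gpam* (chr19:55067268-55127238, minus strand), the mitochondrial acyltransferase that starts triglyceride synthesis, was at 8.998, 8.49, and 8.10 FPKM with DMSO, 7.58, 7.54, and 7.71 with EpA, 7.32, 6.96, and 6.83 with fatostatin, and 7.56, 6.97, and 6.82 with both compounds. Every library with a compound lay below the 3 DMSO libraries. The log2 difference was -0.16 ± 0.0485 for EpA (limma adjusted p = 0.0294), -0.27 ± 0.0485 for fatostatin (adjusted p = 0.00301), and 0.015 ± 0.0485 for both compounds against fatostatin (adjusted p = 0.857).

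*Lpin1* (chr12:16535669-16610966, minus strand), a phosphatidate phosphatase gene, was at 2.59, 2.65, and 2.70 FPKM with DMSO, 3.20, 3.07, and 2.72 with EpA, 3.85, 3.42, and 3.76 with fatostatin, and 4.27, 3.73, and 4.08 with both compounds. All 6 libraries with fatostatin lay above all 6 without it. It rose with fatostatin (0.46 ± 0.0721, limma adjusted p = 0.00131) and with both compounds against EpA (0.42 ± 0.0721, adjusted p = 0.00240), and EpA gave 0.17 ± 0.0721 (adjusted p = 0.109; 0.23 and adjusted p = 0.0383 without EpA replicate 3).

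*Dgat1* (chr15:76502015-76511953, minus strand), which makes triglyceride from diglyceride, was at 9.98, 10.003, and 9.54 FPKM with DMSO, 11.2, 10.9, and 12.002 with EpA, 8.49, 8.97, and 8.49 with fatostatin, and 11.2, 11.9, and 10.8 with both compounds. All 6 libraries with EpA lay above all 6 without it, and the fatostatin libraries lay below those with DMSO. The log2 difference was 0.21 ± 0.0452 for EpA (limma adjusted p = 0.00571), -0.18 ± 0.0452 for fatostatin (adjusted p = 0.0189), and 0.38 ± 0.0452 for both compounds against fatostatin (adjusted p = 8.31e-05). *Dgat2* (chr7:99153658-99182719, minus strand), an unrelated enzyme for the same step, was at 1.11, 1.36, and 1.08 FPKM with DMSO, 1.16, 1.67, and 1.40 with EpA, 1.19, 0.854, and 0.897 with fatostatin, and 1.73, 2.06, and 1.68 with both compounds. Its libraries with both compounds lay above all others, and the other 3 groups overlapped pairwise. It rose with both compounds against DMSO (0.59 ± 0.154, adjusted p = 0.0115) and against fatostatin (0.84 ± 0.154, adjusted p = 0.00173), whereas EpA alone gave 0.23 ± 0.154 (adjusted p = 0.317) and fatostatin alone -0.25 ± 0.154 (adjusted p = 0.334). Its values rested on 105 to 264 reads. The lipase genes *Pnpla2* and *Pnpla8* passed in no comparison.

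The acyl-CoA synthetases, which activate fatty acids for all later steps, were split between *Acsl4* and *Acsl5*. *Acsl4* (chrX:142317993-142390535, minus strand), which prefers arachidonic acid, was at 31.97, 30.8, and 31.1 FPKM with DMSO, 40.2, 39.3, and 40.4 with EpA, 35.6, 34.3, and 35.8 with fatostatin, and 47.1, 47.2, and 46.2 with both compounds. The 4 groups did not overlap and rose in the order DMSO, fatostatin, EpA, and both, the reverse of the order for *Srebf1*. The log2 difference was 0.35 ± 0.0229 for EpA (limma adjusted p = 1.07e-06), 0.17 ± 0.0229 for fatostatin (adjusted p = 4.27e-04), and 0.58 ± 0.0229 for both (adjusted p = 9.97e-09). *Acsl5* was at 53.8 ± 0.684 FPKM with DMSO and 49.9 ± 0.408 with EpA (-0.11, adjusted p = 0.00243), and fatostatin gave -0.040 (adjusted p = 0.250). *Acsl1* and *Acsl3* passed in no comparison.

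Among the 7 oxidation genes, *Acadm* (chr3:153922357-153944632, minus strand), the medium-chain acyl-CoA dehydrogenase gene, was at 18.5, 19.7, and 18.3 FPKM with DMSO, 21.97, 21.8, and 23.1 with EpA, 19.1, 18.6, and 17.8 with fatostatin, and 22.7, 23.5, and 23.04 with both compounds. All 6 libraries with EpA lay above all 6 without it, and those with fatostatin alone overlapped DMSO. It rose with EpA (0.24 ± 0.0366, adjusted p = 5.25e-04) and with both compounds against fatostatin (0.32 ± 0.0366, adjusted p = 6.14e-05). *Hadha*, the alpha subunit gene of the mitochondrial trifunctional protein, fell with EpA (-0.10, adjusted p = 0.00526), while *Hadhb*, its beta subunit gene, passed in no comparison. *Cpt1a*, the gate for entry of long-chain fatty acids into mitochondria, fell with both compounds against DMSO (-0.16, adjusted p = 0.00237) and against fatostatin (-0.18, adjusted p = 0.00184). *Cpt2*, *Acadl*, and *Acadvl* passed in none. In either reading of fatostatin, 0 of the 7 genes were called by limma, a count near the 14.0% and 16.0% of all genes for a list of this size. At an unadjusted p below 0.05 there were 0 without EpA and 1 (*Cpt1a*) with it, where 26.8% and 28.7% of all genes were. Reads of *Acadvl* cannot be told from those of *Dvl2*, which covers 42.9% of its exons on the opposite strand, if strand was not used in counting, and 19.7% of the 50-base stretches of *Hadhb* recur elsewhere. The summed level of the 7 genes was 158 ± 1.79 FPKM with DMSO, 160.1 ± 1.34 with EpA, 159 ± 0.164 with fatostatin, and 159 ± 1.56 with both. The summed level of the 5 desaturation genes, nearly all from *Scd1* and *Scd2*, was 813 ± 8.49, 799 ± 6.16, 716 ± 15.8, and 722 ± 13.7 FPKM in the same order, and that of the 4 activation genes 98.01 ± 0.781, 103 ± 1.49, 100.4 ± 0.869, and 109 ± 1.58.

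Among the genes of uptake and storage, *Fabp5* rose with EpA (0.10, limma adjusted p = 0.0177) and with both compounds against fatostatin (0.13, adjusted p = 0.00300). *Plin2*, the lipid droplet coat protein gene, was at 12.4, 12.3, and 12.4 FPKM with DMSO, 11.1, 11.3, and 10.98 with EpA, 12.2, 13.4, and 12.6 with fatostatin, and 12.5, 12.5, and 12.7 with both compounds. The EpA libraries lay below all others. It fell with EpA (-0.15 ± 0.0322, adjusted p = 0.00464) and rose with both compounds against EpA (0.18 ± 0.0322, adjusted p = 0.00341). *Cd36* passed in no comparison.

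**Figure D5:**
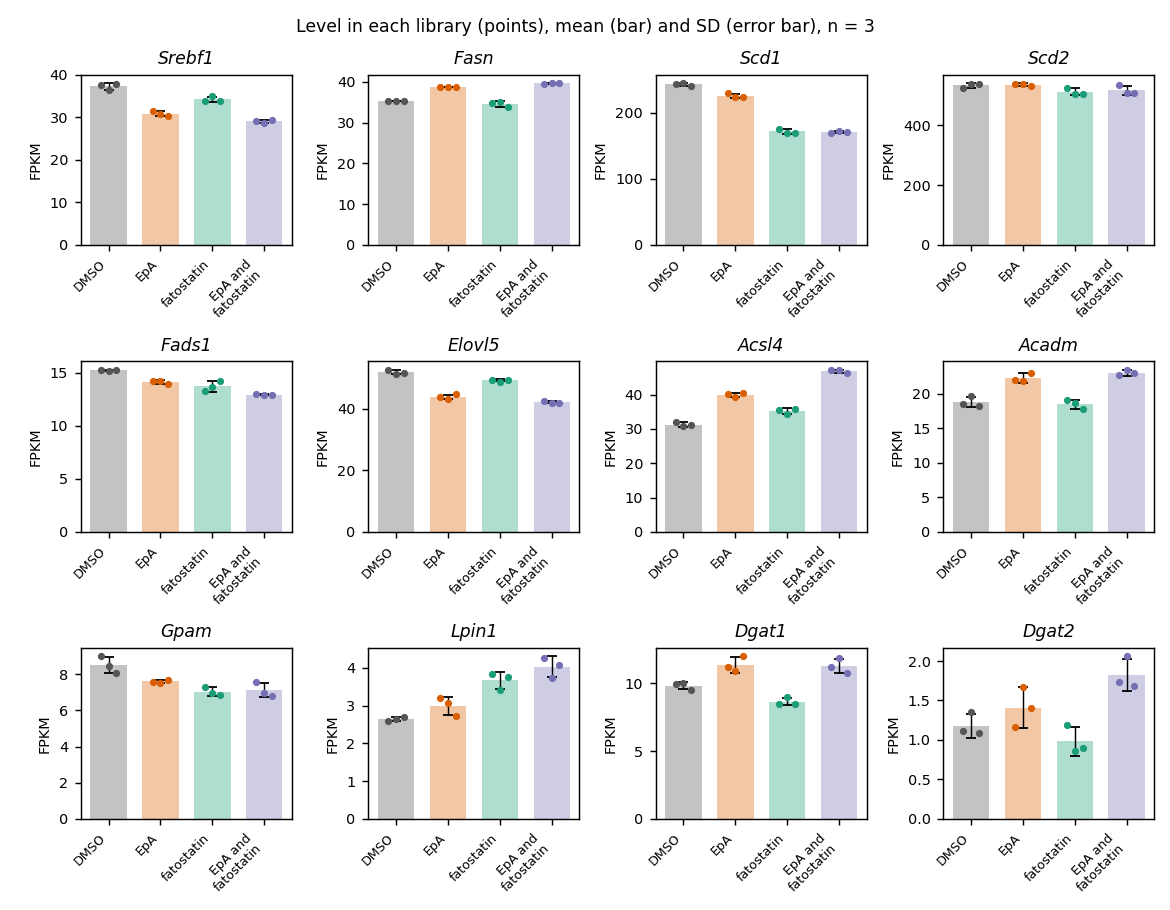
FPKM of 12 genes in each library (points), with the mean (bar) and SD (error bar) of the 3 libraries of each group. Every axis starts at 0. *Srebf1* and *Elovl5* step down and *Acsl4* steps up from DMSO to fatostatin, EpA, and both compounds. *Scd1* follows fatostatin, with a smaller fall with EpA alone, and *Fasn* and *Acadm* follow EpA.

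Whether EpA acted differently with fatostatin present was tested as the difference between its effects with and without it. By limma, 0 of the 41 genes passed an adjusted p below 0.05, as did 0.0437% of all genes (0.0364% higher and 0.00728% lower, 0.0% past 1.5-fold), with 6 of the 41 and 7.89% of all genes at an unadjusted p below 0.05. With voom of limma on the recovered reads 0 passed as well, with 7 and 7.57% at an unadjusted p below 0.05. The 6 genes were *Scd1* (0.10 ± 0.0262, adjusted p = 0.365), *Fasn* (0.065 ± 0.0247, adjusted p = 0.544), *Gpam* (0.18 ± 0.0686, adjusted p = 0.555), *Dgat1* (0.18 ± 0.0639, adjusted p = 0.526), *Dgat2* (0.61 ± 0.218, adjusted p = 0.502), and *Plin2* (0.14 ± 0.0455, adjusted p = 0.468), each more positive with fatostatin. For *Srebf1* the difference was 0.036 ± 0.0326 (adjusted p = 0.869) and for *Fads1* 0.025 ± 0.0377 (adjusted p = 0.939).

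Of 99 further genes of the same pathways, listed by role with earlier results of these data known, 74 were tested. EpA against DMSO called 13 higher and 10 lower, fatostatin against DMSO called 7 and 9, the comparison of both compounds with EpA 11 and 7, both compounds against fatostatin 17 and 10, and both compounds against DMSO 19 and 10. These are 31.1%, 21.6%, 24.3%, 36.5%, and 39.2% of the 74 genes, beside 27.4%, 14.0%, 16.0%, 29.5%, and 35.5% of all genes tested, so that the counts by themselves are not a result about these genes. In SREBP processing, *Insig1*, an SREBP target and ER retention factor, was at 39.1 ± 0.929 FPKM with DMSO and 34.8 ± 0.611 with fatostatin (-0.17, limma adjusted p = 0.00191). *Insig2* was at 8.23 ± 0.328 FPKM with DMSO and 10.7 ± 0.684 with both compounds (0.37, adjusted p = 7.55e-05). *Srebf2*, the SREBP2 gene, fell with fatostatin (-0.093, adjusted p = 0.00593) and had -0.0067 with EpA (adjusted p = 0.835). *Mbtps1*, the site-1 protease gene, fell with EpA (-0.20, adjusted p = 1.04e-04).

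*Slc25a1*, which exports the citrate used for fatty acid synthesis from mitochondria, was at 29.9 ± 0.628 FPKM with DMSO and 23.8 ± 1.96 with fatostatin (-0.33, limma adjusted p = 0.00154). *Hilpda*, a lipid droplet protein that inhibits lipolysis, was at 28.97 ± 2.35 FPKM with DMSO and 45.4 ± 1.81 with EpA, and passed 1.5-fold (0.65, adjusted p = 5.39e-06), as did the glycerol-3-phosphate acyltransferase gene *Gpat3* (0.62, adjusted p = 0.0181, at 0.269 ± 0.0515 FPKM with DMSO). These were 2.7% of the 74 genes, against 3.38% of all genes. With fatostatin the single gene past 1.5-fold (1.35%, against 1.86% of all genes) was *Cpt1c*, from 0.268 ± 0.0519 to 0.641 ± 0.0412 FPKM (1.02, adjusted p = 0.00260). With both compounds against DMSO the 6 past 1.5-fold (8.11% of the 74 genes, against 5.64% of all genes) were *Hilpda*, *Cpt1c*, *Agpat4* (0.83), and the fatty acid transporter gene *Slc27a6* (0.99), which were higher, and *Acsbg1* (-0.64) and *Scd4* (-0.75), which were lower.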

How the data were processed

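RNA-seq was measured in 12 libraries of in vitro–differentiated Th9 cells, 3 in each of 4 groups named by the labels. The deposited values are FPKM, which the authors computed from featureCounts gene counts. Per the study's methods, reads had been trimmed by Trim Galore. The submitters' processing notes give HISAT2 as aligner and GRCm38 as build. The authors' own tests used DESeq2 on counts, which was not run here. The annotation release and strand setting are not given in the sources used here. Of 32352 lines, 301 repeated a gene with the same values, leaving 32051 genes.

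With GENCODE exon lengths, 98.3% to 98.4% of the FPKM in each library equaled whole reads (within 0.02), which summed to 36019739 to 43656682 per library. Values were tested as log2(FPKM + 0.1) in the 13733 genes averaging 0.1 FPKM or more, with limma 3.58.1 in R 4.3.3, in 1 fit with 4 group means and an intensity trend. p-values are two-sided and adjusted by the Benjamini-Hochberg method over all tested genes of a comparison. An exact permutation test of 3 against 3 libraries cannot go below 0.1 and was not used. The 42 genes, their roles, and the other lists were chosen with earlier results of these data known. Values in every library were planned for genes with an adjusted p below 0.05, a fold change of at least 1.2, and an average of 1 FPKM or more, and always for *Srebf1*, *Fasn*, *Scd1*, *Scd2*, and *Fads1*. *Elovl7* and *Plin2* were added after their values were seen. The methods were tested on simulated data. Alternatives changed the pseudocount, minimum, scaling, groups in the fit, intensity trend, replicate block, test (voom on recovered reads), and the libraries entered, by removal of each. An alternative without the first replicates of fatostatin and of both compounds was chosen after seeing the data.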

Additional observations from a re-analysis of the deposited data

Results flagged for a closer look

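For *Fasn*, the effect of fatostatin pointed in opposite directions without and with EpA. All 3 fatostatin libraries lay below all 3 DMSO libraries (log2 difference -0.030, limma adjusted p = 0.311), and all 3 libraries with both compounds lay above all 3 with EpA (0.035, adjusted p = 0.212). The test of the difference gave 0.065 (adjusted p = 0.544), so that the opposite directions did not pass it.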

How the results depend on the processing

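Of 75 calls among the 41 tested genes in 5 comparisons, 55 held under each of the 23 alternatives that tested them, 20 were lost under at least 1, and 0 turned direction. Of the 55, *Elovl7* with both compounds against DMSO and *Fads3* with both against fatostatin were not tested with a minimum mean of 1 FPKM, which both genes lie under. By comparison, 12 of 17 calls held for EpA against DMSO, 7 of 11 for fatostatin against DMSO, 6 of 8 for both compounds against EpA, 13 of 17 against fatostatin, and 17 of 22 against DMSO. With single libraries left out, the genes that rose with EpA numbered 5 to 10 (main 9), those that fell with fatostatin 5 to 9 (main 9), and those that fell with both compounds against EpA 3 to 5 (main 5), and the last count was 3 with no intensity trend and 7 under median-of-ratios scaling. With voom on the recovered reads, 11 genes were higher and 8 lower with EpA, 3 and 10 with fatostatin, 4 and 5 with both compounds against EpA, 14 and 5 against fatostatin, and 15 and 10 against DMSO. No scaling moved the median over all genes by more than 0.1. Median-of-ratios scaling moved the share of higher calls over all genes from 57.6% to 46.5% for both compounds against EpA, from 55.5% to 48.9% against DMSO, and from 54.8% to 48.7% against fatostatin.

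The replicate numbers were shared by label only. Deviations of same-numbered libraries from their group means correlated at -0.0472 to 0.0744 over 18 pairs, against -0.0859 to 0.0492 over 36 pairs of other numbers. With a replicate block, 9 genes rose and 8 fell with EpA, 2 and 8 changed with fatostatin, 3 and 5 with both compounds against EpA, 11 and 5 against fatostatin, and 12 and 9 against DMSO. The block ended the calls of *Fads2* with fatostatin, *Fads1* with both against fatostatin, and *Fabp5* with both against DMSO.

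Differences that did not pass the test changed sign in places. Under median-of-ratios scaling, *Scd2* gave -0.0007 for both compounds against fatostatin and -0.0024 for the difference between the EpA effects. Without the first replicates of fatostatin and of both compounds, which was chosen after seeing the data, *Scd1* gave 0.016 and *Gpam* -0.0004 for both compounds against fatostatin, and *Fads1* -0.0039 for the difference. With single libraries left out, the ranges were -0.0082 to 0.0114 for *Scd2* with EpA, -0.0498 to 0.0065 for *Acadm* with fatostatin, -0.0438 to 0.0309 for *Dgat1* with both compounds against EpA, -0.0185 to 0.0105, -0.0101 to 0.0331, and -0.0288 to 0.0446 for *Scd1*, *Scd2*, and *Gpam* with both against fatostatin, and -0.0148 to 0.0284 and -0.1075 to 0.0113 for *Scd2* and *Lpin1* in the difference. The cause of these changes was not tested. Depth limits what can be said of *Cd36*, *Nr1h3*, *Acacb*, *Elovl7*, and *Fads3*, at under 100 reads in every library.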
